A study of Mus musculus with 4 samples.

Results

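CTCF occupancy was described around 5 homeobox genes, Meis1, Meis2, Meis3, Pbx2 and Pbx3. Peaks of 4 lists that shared at least 1 base were joined into union sites, and those in the mm10 RefSeq span of a gene or within 100 kb on either side were taken. The windows held 102 of the 121759 union sites of the series, with 18 at Meis1, 26 at Meis2, 22 at Meis3, 16 at Pbx2 and 20 at Pbx3. No site fell in the windows of more than 1 gene. The sites nearest to a window edge were at Meis2, 0.332 kb inside it and 3.32 kb outside it.

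The lists came from chromatin immunoprecipitation and sequencing (ChIP-seq) with an antibody against CTCF in wild-type mouse embryos of the B6CBAF1 strain, and the tissues were proximal forelimb at E12.5 (embryonic day), distal forelimb at E12.5, brain at E12.5 and posterior trunk at E10. Brain was pooled telencephalon, the front part of the forebrain. Posterior trunk was pooled tissue of the tailbud, presomitic mesoderm and last somites, dissected to leave out most of the hindlimb bud. Both forelimb libraries are marked by their titles as earlier data analysed again. All embryos carried the same genotype, and each tissue had 1 library. Differences between tissues therefore have no replicate check and no p-value. Peak lists hold no expression values, so the tissues could not be checked against marker genes. In bulk tissue, a site bound in few cells and a site bound weakly in all cells cannot be told apart.

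Meis and Pbx proteins are TALE-class homeodomain factors, named for an extended loop in the homeodomain. They bind DNA together and with Hox proteins, and partnership with Meis helps to bring Pbx into the nucleus. In the limb bud, Meis1 and Meis2 mark the proximal domain that forms the upper limb, where retinoic acid sustains them, while fibroblast growth factor signals from the limb tip restrict them distally. CTCF is a zinc-finger protein that binds at loop anchors and domain borders.

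Proximal forelimb had 63873 peaks, distal forelimb 64793, brain 74127 and posterior trunk 106662. Relative to distal forelimb, library depth estimated from the lowest local background was 1.08 in proximal forelimb, 2.02 in brain and 2.21 in posterior trunk, so both forelimb lists were similar in length and depth and the others were deeper. Peak strength is given as the authors' fold, in which the pileup at the summit plus 1 is divided by the background around it plus 1, and as a rank percentile, where peaks of 1 list are ordered by p and the top one is at 100. Folds describe peaks within a list. Proximal and distal forelimb were compared by call and by rank in lists of equal length.

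The 5 windows carried a lower portion of sites shared by all tissues than the genome as a whole, and the genes differed widely. Of the 102 sites, 32 were called in all 4 tissues, or 31.4%, against 42.4% of all union sites. The portion depended on the length of the lists. In lists of equal length it was 52.5%, or 32 of 61 sites, against 58% of all union sites. After thinning to equal background it was 41.6%, or 32 of 77, against 51.8%, and among peaks whose −log10 q was 5 or more 37.8%, or 31 of 82, against 48.9%. In the lists as deposited, Meis3 had 14 of 22 and Pbx2 8 of 16, while Meis1 had 4 of 18, Meis2 5 of 26 and Pbx3 1 of 20. In lists of equal length the same genes had 14 of 17, 8 of 15, 4 of 10, 5 of 12 and 1 of 7. Posterior trunk alone accounted for 43 sites in the lists as deposited, or 42.2%, against a background of 28.4%. In the lists as deposited, windows of protein-coding genes with at least 10 sites had a median shared portion of 50%. Of these windows, 2.75% had a lower portion than Meis1, 1.60% than Meis2 and 0.148% than Pbx3. The same value was 85.2% for Meis3 and 47.1% for Pbx2. This ranking was not repeated in lists of equal length, where Pbx3 had 7 sites and would have missed the minimum of 10. Site density was 10.4 per 100 kb at Meis3, 7.80 at Pbx2, 6.40 at Meis2, 5.31 at Meis1 and 4.99 at Pbx3, and the median over protein-coding windows was 7.13. The spans were 12499 bases for Meis3 and 5142 for Pbx2, and 206 kb for Meis2, 201 kb for Pbx3 and 139 kb for Meis1, so the short genes had the denser windows.

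**Figure D1:**
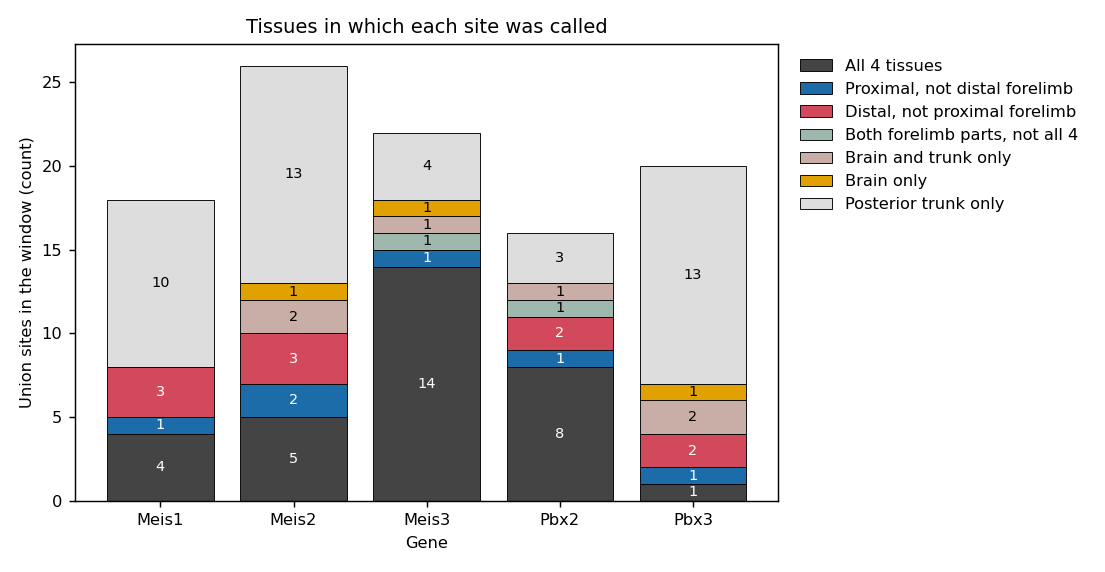
Number of union sites in each gene's window (vertical axis, count), stacked by the tissues in which a site was called, with 1 library per tissue. Sites called in all 4 tissues make up 14 of 22 at Meis3 and 8 of 16 at Pbx2, and 1 of 20 at Pbx3, where 13 were called in posterior trunk only.

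Both forelimb parts differed at 16 of the 102 sites. Proximal forelimb had 6 sites that distal forelimb lacked, or 5.88% against 7.49% of all union sites. Distal forelimb had 10 sites that proximal forelimb lacked, or 9.80% against 8.25%. Both portions lay near the genome-wide ones. Sites called in a single tissue were 1 in proximal forelimb, or 0.980% against a background of 2.23%. There were 4 in distal forelimb, or 3.92% against 3.11%, and 3 in brain, or 2.94% against 5.92%. Most of the 16 sites were weak. The 6 that distal forelimb lacked ranked at a median percentile of 6.41 in proximal forelimb, with folds of 2.68 to 5.11. The 10 that proximal forelimb lacked ranked at 14.9 in distal forelimb, with folds of 3.05 to 6.03. Genome-wide medians were 10.8 and 10.6.

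Most of the distal sites that proximal forelimb lacked were inside the genes, a split looked at after the values were seen. Inside the spans of the 5 genes, 2 of 36 sites were called in proximal and not in distal forelimb, or 5.56%, against 7.49% of sites in protein-coding spans. In the opposite direction there were 8 of 36, or 22.2%, against 7.71%. In the flanks the counts were 4 and 2 of 66. The 8 were 3 sites in Meis1, 2 in Meis2, 1 in Pbx2 and 2 in Pbx3, and 4 of them were also called in posterior trunk. Limited to peaks whose −log10 q was 5 or more, the forelimb difference was lost at 3 of the 8. Sites called in all 4 tissues were 5 of 36 inside the spans, or 13.9%, against 44% in protein-coding spans, and 27 of 66 in the flanks. These counts are a description of single libraries, without a test.

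**Figure D2:**
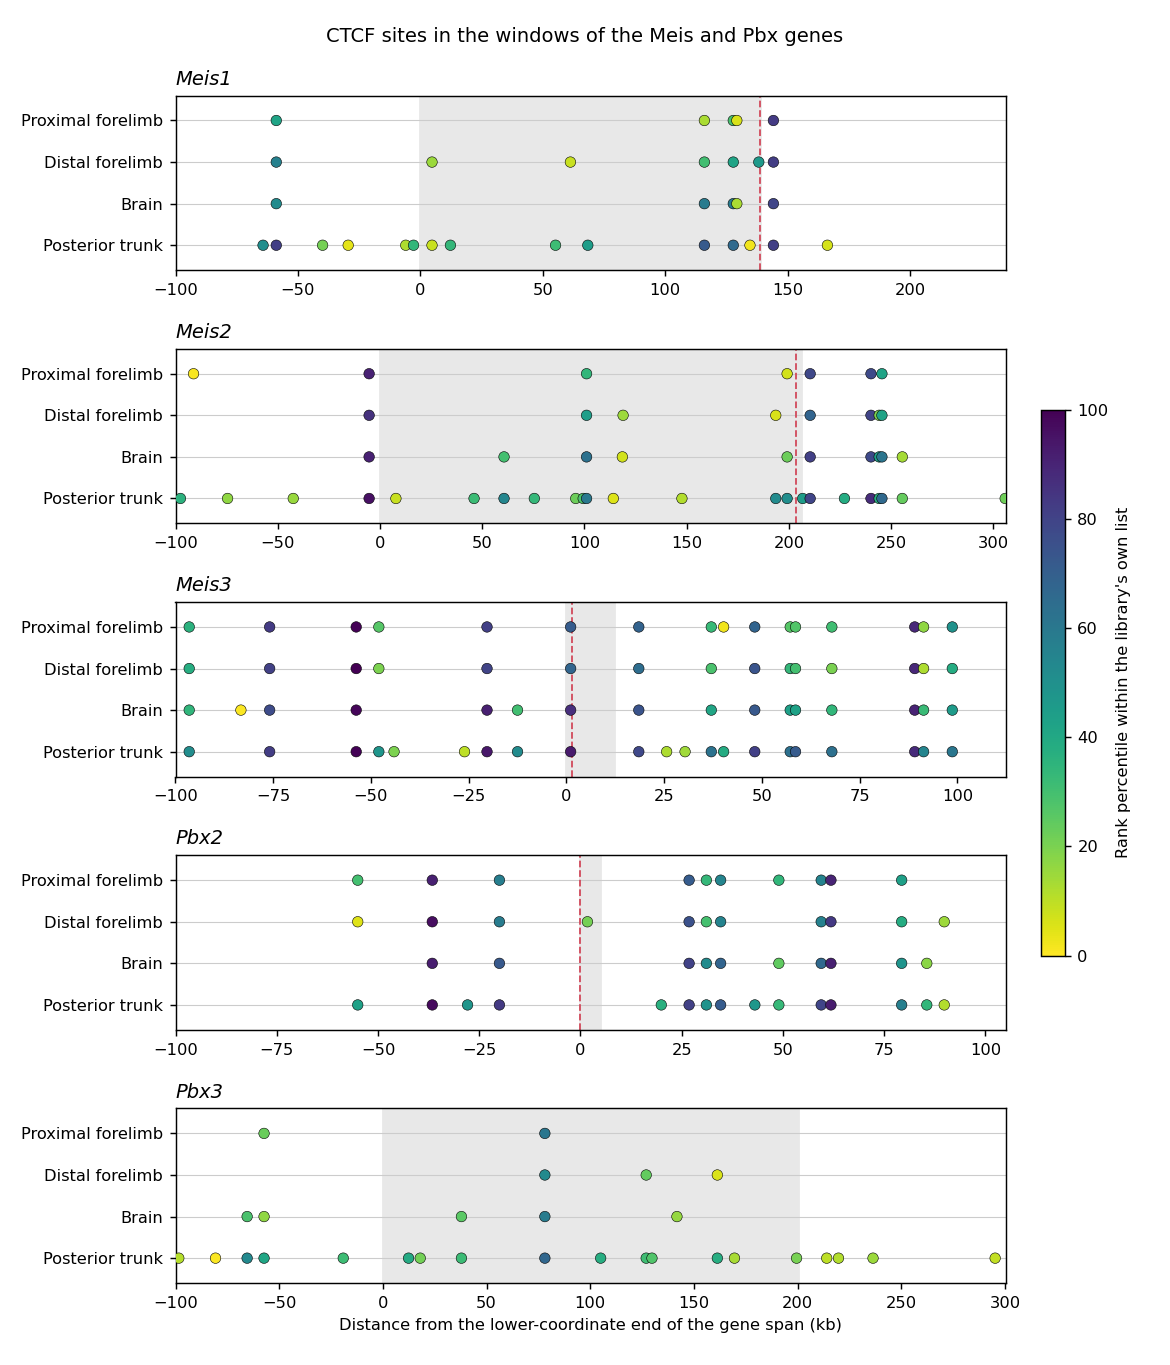
CTCF sites in the window of each gene by distance from the lower-coordinate end of its span (kb), 1 row per tissue, coloured by rank percentile within that library's own list. Grey marks the gene span and the dashed line the RefSeq start of transcription, which was not in the table for Pbx3. Within the spans, distal forelimb has points that proximal forelimb lacks in Meis1, Meis2, Pbx2 and Pbx3.

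Meis1, which encodes a partner of Pbx and Hox proteins, carried a distal site at its start of transcription. The site chr11:19018274-19018972 was listed for distal forelimb and for no other tissue, and had a fold of 6.03 at percentile 46.3 of the distal list. It covered the RefSeq start of Meis1, overlapped the upper-coordinate end of the lncRNA gene Gm16141, and its summit lay 184 bases downstream of the Meis1 start. That start, at 19018969, was close to the upper end of the site, and the gene span ran on to 19019651. The site spanned 699 bases, and 98.8% of distal peaks were narrower. The summit pileup was 48 reads over a local background of 7.12, which was above the lowest background of the list, 4.23. At the same occupancy the −log10 p would have been 25.9 in proximal forelimb, 46.6 in brain and 50.8 in posterior trunk, against lowest listed values of 3.23, 3.13 and 3.00. The site was picked for its distal call and its distal fold, so such values lean high. The nearest peak lay 5457 bases away in proximal forelimb, 5447 in brain and 3063 in posterior trunk. Of 3784 distal-only sites in the genome, 4 had a higher fold, and their median fold was 3.06.

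The promoter windows of Meis1 and Meis3 are shown because a CTCF site covered the start of transcription at both genes, in distal forelimb only at Meis1 and in all 4 tissues at Meis3. Both sequences are from RefSeq on GRCm38.p6, the assembly of mm10, run from 250 bases before to 50 bases after the start, and carry in capitals the bases inside the site. They are Meis1 at chr11:19018920-19019219 on the minus strand and Meis3 at chr7:16175145-16175444 on the plus strand.
Meis1: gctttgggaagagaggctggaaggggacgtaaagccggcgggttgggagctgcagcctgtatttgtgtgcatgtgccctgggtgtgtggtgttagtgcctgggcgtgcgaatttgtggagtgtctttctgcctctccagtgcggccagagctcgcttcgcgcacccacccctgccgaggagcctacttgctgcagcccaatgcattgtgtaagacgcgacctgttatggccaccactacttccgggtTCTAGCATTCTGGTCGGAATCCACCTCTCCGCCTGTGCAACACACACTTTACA
Meis3: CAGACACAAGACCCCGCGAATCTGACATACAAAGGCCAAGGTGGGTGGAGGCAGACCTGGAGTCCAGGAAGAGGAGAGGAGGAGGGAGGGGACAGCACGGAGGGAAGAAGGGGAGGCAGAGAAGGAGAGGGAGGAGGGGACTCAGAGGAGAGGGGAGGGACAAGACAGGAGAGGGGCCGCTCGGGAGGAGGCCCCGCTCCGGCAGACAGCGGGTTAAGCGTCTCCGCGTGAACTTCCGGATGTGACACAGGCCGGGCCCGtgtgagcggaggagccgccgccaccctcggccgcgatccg

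At Meis1 the site took in the last 53 bases of the window, and at Meis3 the leading 260. G+C content was 58.3% at Meis1 and 66.7% at Meis3, and CpG dinucleotides numbered 15 and 21. The medians over the promoters of the table were 52.7% and 7. A core of the CTCF motif was searched on both strands, written as CC, 3 bases of any kind, AG, 2 bases of any kind and GGC. It was in neither window, nor in those of Meis2 and Pbx2, which lay under no site. At Meis1 the window held 53 of the 699 bases of the site and not its summit, so nearly all of the site was not searched. At Meis3 the window held 260 of the 623 bases of the site and none of its summits, so most of that site was not searched either. The core occurred in 8.61% of 32851 promoters, in 25.8% of those under a site called in all 4 tissues, in 12 of 59 under a distal-only site and in 5.90% of those under no site. Proximal-only sites lay over 0.137% of the promoters and distal-only sites over 0.180%.

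Shared sites of Meis1 also ranked lower in proximal than in distal forelimb. In lists of equal length, the site chr11:18996147-18996662 stood at percentile 12.8 in proximal and 29.4 in distal forelimb. For chr11:19007870-19008533 these were 29.5 and 40.7, and for chr11:18821304-18821859, in the lncRNA gene Gm31674, they were 41.5 and 55.8. The strongest shared site, chr11:19024314-19024864, lay 4663 bases outside the span on the promoter side and stood at 82.7 and 81.9. Its whole-list percentile was 79.5 in brain and 81.3 in posterior trunk. Thus 3 of 4 shared sites were lower in proximal forelimb by at least 10 points, a gap seen in 10.1% of all sites called in both parts and in 19.6% of those with a distal percentile of 20 to 60. The summits of all 4 lay within 67 bases of each other across tissues.

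Other forelimb differences at Meis1 were weak. Distal forelimb and posterior trunk shared chr11:18884660-18885694 inside the gene, with folds of 3.32 and 2.50, and distal forelimb alone had chr11:18941598-18941797 at 3.28. Proximal forelimb and brain shared chr11:19009533-19009767, with folds of 2.93 and 2.71 at percentiles 5.89 and 12.7. It lay 9202 bases downstream of the start. Posterior trunk alone had 10 sites with folds of 2.07 to 5.996, the highest at chr11:18816009-18816356 in Gm31674.

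**Figure D3:**
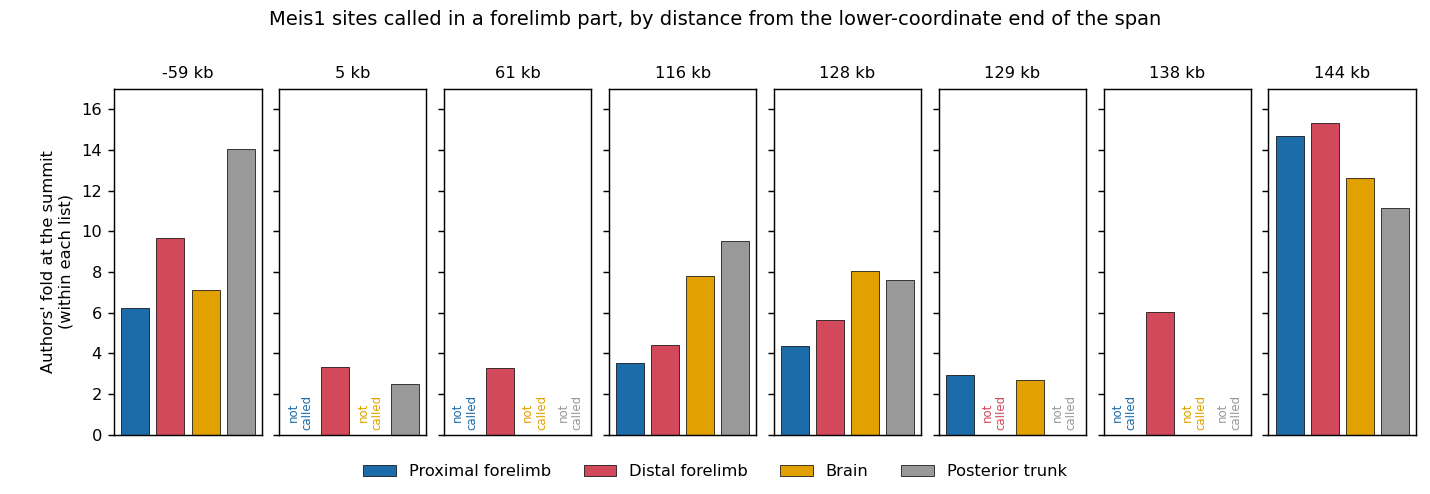
Authors' fold at the summit (vertical axis) for the 8 Meis1 sites called in a forelimb part, 1 panel per site, by distance in kb from the lower-coordinate end of the span. At 138 kb, the site over the start of transcription, distal forelimb alone has a bar, at 6.03, and at 144 kb all 4 tissues lie between 11.1 and 15.3.

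Meis2, a paralog with the same proximal limb domain, was framed by strong shared sites and had no site over its RefSeq start. Below the lower-coordinate end of the span, on the far side from the promoter, chr2:115855683-115856234 lay 5030 bases outside and had folds of 16.99 in proximal forelimb, 15.6 in distal forelimb, 15.4 in brain and 13.8 in posterior trunk. Its percentiles were 90.8, 85.8, 91.0 and 96.0 in that order. On the promoter side, chr2:116071417-116071907 in the lncRNA gene G630016G05Rik lay 6798 bases from the start, at percentiles of 78.3 in proximal and 67.8 in distal forelimb in lists of equal length. The difference was 10.4 points towards proximal forelimb, and 9.78% of all sites called in both had a gap of at least 10 points in that direction. Further out, chr2:116101176-116101639 stood at 77.4 and 79.6. A single shared site lay inside the gene, chr2:115962102-115962508, at 34.4 and 43.7.

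The weak sites of Meis2 differed in both directions. Proximal forelimb had chr2:116060202-116060579, 4040 bases from the start, with a fold of 3.09, and brain and posterior trunk had it at 3.46 and 5.03. Distal forelimb had chr2:116054665-116055003, 9616 bases from the start, at 3.05, and posterior trunk at 5.25. Both were near the bottom of the forelimb lists, at percentiles 6.92 and 6.09. A distal-only site, chr2:115980055-115980285 with a fold of 3.76, was separated by 86 bases from a brain-only site, chr2:115979661-115979968, at 2.51. A proximal-only site, chr2:115769985-115770191 in BC052040, had a fold of 2.68 at percentile 1.004. The last forelimb difference, chr2:116105269-116105553, was called in distal forelimb, brain and posterior trunk, with folds of 3.11, 3.78 and 2.70. Posterior trunk alone had 13 sites, with folds of 2.35 to 4.31, among them chr2:116067828-116068187, 291 bases beyond the promoter-side end of the span.

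Meis3, a relative with roles in the hindbrain of fish and frogs, had the densest and most shared set. The site over its start, chr7:16174782-16175404, had folds of 12.2 in proximal forelimb, 11.1 in distal forelimb, 14.7 in brain and 14.3 in posterior trunk, at percentiles 71.5, 67.8, 86.9 and 93.1. Its summits were at positions -332, -334, -333 and -339 relative to the start, within 7 bases of each other and upstream of the printed window. The strongest site of all windows, chr7:16119877-16120598, lay in Kptn, which encodes an actin-associated protein, with folds of 19.9, 21.9, 16.2 and 14.9 and percentiles between 98.8 and 99.7. The site chr7:16262783-16263442, which lay 3243 bases beyond C5ar1, had percentiles between 88.2 and 90.3. These strong sites differed by less than 5 points between the forelimb parts in lists of equal length.

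Of 15 Meis3 sites called in both forelimb parts, 2 ranked higher in proximal forelimb by at least 10 points. Such a gap was seen in 9.78% of all sites called in both parts and in 12.1% of those with a distal percentile of 20 to 60. They were chr7:16241712-16242103 in C5ar2, a receptor gene of the complement system, at percentiles 30.5 in proximal and 19.04 in distal forelimb, and chr7:16272432-16273011 in Ccdc9 and Inafm1, at 48.96 and 37.4. None of the 15 ranked higher in distal forelimb by that much, against 10.1% of all sites called in both parts. No site was called in distal and not in proximal forelimb. The converse held for chr7:16214043-16214399 in Dhx34, an RNA helicase gene, with folds of 2.79 in proximal forelimb and 4.01 in posterior trunk. A site in Kptn, chr7:16125865-16126187, was missing from brain alone, and posterior trunk alone had 4 sites with folds of 2.66 to 2.90.

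**Figure D4:**
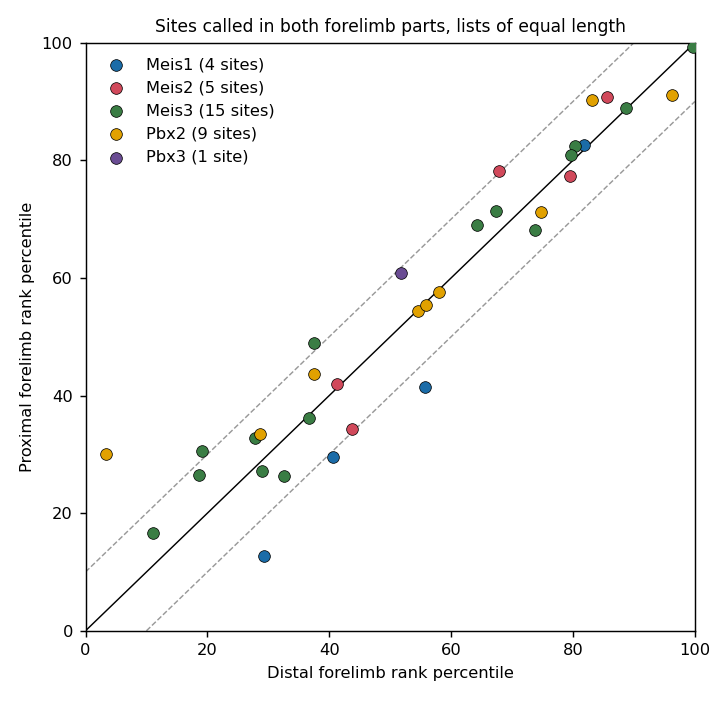
Rank percentile in proximal forelimb (vertical axis) against distal forelimb (horizontal axis) for the 34 sites called in both, in lists cut to the same length of 63873 peaks, with dashed lines 10 points from equality. Below the lower dashed line are 3 sites, all of Meis1, and above the upper one are 4, of which 2 are of Meis3 and 1 each of Meis2 and Pbx2, the last of them joining peaks with summits 393 bases apart. Of all sites of the series called in both parts, 10.1% had such a gap below and 9.78% above.

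Pbx2, a widely expressed Pbx gene, lies in the gene-dense histocompatibility region beside Notch4. Its span held a single site, chr17:34593886-34594089, which distal forelimb alone had, at a fold of 4.21 and percentile 20.8, its summit 1739 bases downstream of the start. The strongest shared sites were chr17:34555251-34556088 in the lncRNA gene Gm31560 and chr17:34653724-34654511 in Atf6b, a gene of the endoplasmic reticulum stress response. Folds at the Gm31560 site were 15.6 in proximal forelimb, 19.2 in distal forelimb, 14.0 in brain and 14.3 in posterior trunk. Those at the Atf6b site were 14.8, 13.1, 12.8 and 10.7.

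The widest rank gap of the 34 sites called in both forelimb parts was at a Pbx2 site made of separate peaks. The site chr17:34536878-34537646 in the pseudogene Btnl7-ps stood at percentile 30.0 in proximal and 3.41 in distal forelimb, with pileups of 27 and 15 reads, and was not called in brain. The summits of these peaks lay 393 bases apart, against at most 61 bases at the other 33 sites. Where peaks were joined by summits within 150 bases, the site split, and the peak shared by both parts stood at whole-list percentiles of 6.47 in proximal and 4.78 in distal forelimb, while the stronger proximal peak was shared with posterior trunk alone. Near Ppt2, chr17:34640825-34641688 was called in proximal forelimb at a fold of 5.11 and percentile 34.1, in brain at 3.41 and in posterior trunk at 3.62, and not in distal forelimb. It was the strongest of the 6 proximal sites that distal forelimb lacked. In Tnxb, an extracellular matrix gene, chr17:34681966-34682239 had folds of 3.76 in distal forelimb and 2.73 in posterior trunk. Posterior trunk alone had 3 sites, with folds of 4.02 to 5.17.

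Pbx3, which is needed in the mouse for the brainstem control of breathing, had a single site called in all 4 tissues among its 20. This was chr2:34249329-34249821 inside the gene, with folds of 9.17 in proximal forelimb, 7.84 in distal forelimb, 7.92 in brain and 8.37 in posterior trunk. Its percentiles were 60.8, 52.4, 58.5 and 66.9. Proximal forelimb had 2 sites in the window, distal forelimb 3, brain 5 and posterior trunk 19. Those were 10%, 15%, 25% and 95% of the 20, against 52.0%, 52.8%, 60.5% and 87.5% of all union sites. The other proximal site, chr2:34113967-34114346, was shared with brain and posterior trunk, with folds of 4.11, 2.96 and 4.10. The other distal sites, chr2:34298285-34298609 and chr2:34332522-34332989, were inside the gene and shared with posterior trunk, with folds of 4.25 and 3.07 in distal forelimb and 3.52 and 4.01 in posterior trunk. Trunk-only sites numbered 13, with folds of 2.13 to 4.05 and a median percentile of 15.0. One of them, chr2:34370821-34371091, lay 954 bases inside the upper end of the span. A brain-only site, chr2:34313129-34313404, had a fold of 2.92.

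Shared sites held their position across tissues as elsewhere in the genome. The distance between the outermost of the 4 summits had a median of 19 bases over the 32 shared sites and of 19 over all 51657 shared sites. It was at most 50 bases in 28 of 32, against 90.8% of all. The widest, 677 bases, was at chr2:116106202-116107313 beyond Meis2, where the posterior trunk summit stood apart. Median percentiles of the 32 were 56.5 in proximal forelimb, 56.4 in distal forelimb, 67.3 in brain and 78.8 in posterior trunk, and those of all shared sites were 59.4, 59.9, 65.0 and 75.8. No member site was called in both forelimb parts and in neither brain nor posterior trunk, a pattern of 0.332% of all union sites, while 6 were called in brain and posterior trunk alone, against 5.46%.

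Counts of posterior trunk sites depended on how the lists were matched for depth or length. With peaks thinned to the same lowest background, trunk-only sites numbered 27 of 77, and in lists of equal length 5 of 61, against 43 of 102 as deposited. The sites called in all 4 tissues numbered 32 in both matched settings. The trunk-only portion of all union sites was obtained only for the lists as deposited. Whether the higher portion in the windows remained after matching is therefore not known. Thinned Pbx3 had 2 sites in proximal forelimb, 3 in distal forelimb, 2 in brain and 13 in posterior trunk. In lists of equal length these were 2, 3, 5 and 3. Thinned Meis1 had 4, 7, 4 and 8 sites. At the occupancy seen in posterior trunk, 38 of the 43 trunk-only sites would have passed the lowest p of each forelimb list, and all 43 that of brain. These sites were picked for passing in posterior trunk, so such values lean high. The scaling changed depth alone, the bar was the weakest listed peak, and the same count was not made over all trunk-only sites of the series. Why the sites were not listed elsewhere was not tested.

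**Figure D5:**
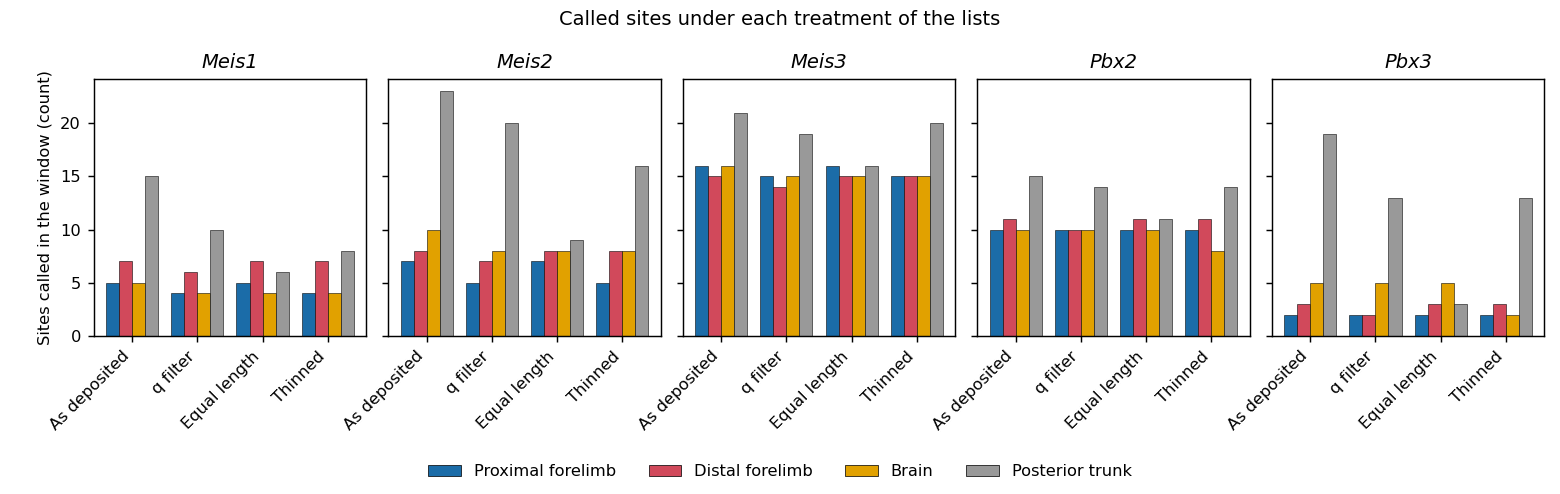
Number of sites called in each gene's window (vertical axis, count) in proximal forelimb, distal forelimb, brain and posterior trunk, for the lists as deposited, limited to peaks whose −log10 q was 5 or more, cut to equal length, and thinned to equal background. Posterior trunk at Pbx3 has 19, 13, 3 and 13 sites, and distal forelimb at Meis1 has 7, 6, 7 and 7, above the 5, 4, 5 and 4 of proximal forelimb.

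Of the 10 distal sites that proximal forelimb lacked, all 10 kept a forelimb difference after thinning and in lists of equal length. The 6 proximal ones did so in 2 cases after thinning, at chr17:34640825-34641688 near Pbx2 and chr2:34113967-34114346 near Pbx3, and in all 6 in lists of equal length. Distal forelimb had the lowest background, so its pileups were not thinned, and all 10 distal sites had a −log10 p of at least 5.23. Proximal forelimb had the shortest list, so none of its peaks were cut. Those outcomes were fixed by the treatment and do not compare the directions. Among peaks whose −log10 q was 5 or more, 7 of the 10 distal and 2 of the 6 proximal sites kept a forelimb difference. The distal-only sites over the start of Meis1, in Meis2 at 115980055 and in Pbx2 were among them. The 3 distal sites lost were all inside the genes, in Meis1 at 18941598, in Meis2 at 116054665 and in Pbx3 at 34332522.

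Other genes of the class and of retinoic acid signalling gave a comparison for the forelimb counts. Around 5 TALE relatives, Pbx4, Pknox1, Pknox2, Tgif1 and Tgif2, 10 of 147 sites were called in proximal and not in distal forelimb and 9 in the opposite direction. Around 6 genes of retinoic acid synthesis, breakdown and reception, Aldh1a2, Rdh10, Cyp26b1, Rara, Rarb and Rarg, these were 11 and 7 of 160. Sites called in all 4 tissues were 56 of 147, or 38.1%, and 78 of 160, or 48.8%. Singly, Tgif1, a repressor of retinoid-responsive genes, had 5 of 27 and Rarg, a retinoic acid receptor gene, 19 of 31. Against series portions of 7.49% for proximal and 8.25% for distal sites, the 6 retinoic acid genes had 0 to 4 of the proximal and 0 to 3 of the distal kind each. Proximal and distal counts were 0 and 3 at Aldh1a2, 1 and 0 at Rdh10, 1 and 1 at Cyp26b1, 3 and 0 at Rara, 2 and 3 at Rarb, and 4 and 0 at Rarg.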

How the data were processed

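The data were 4 CTCF ChIP-seq peak lists, 1 per tissue. MACS2 2.1.1.20160309, Bowtie2 2.3.5, cutadapt 1.16 and SAMtools 1.9 are named, with mm10, per the submitters' processing notes. Options and any control library were not given in the sources. For each peak the authors deposited a fold, the ratio of summit pileup to local background with 1 added to both, with a −log10 p-value, a −log10 q-value, a score that in 99.98% or more of each list was 10 times that q-value's −log10 without its decimals, and a summit offset.

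Only chromosomes 1 to 19, X and Y were kept. An interval listed with several summits counted once, by its lowest p. Coordinates are 1-based, and peaks sharing at least 1 base formed union sites. Whole pileups and local backgrounds were solved from fold and p, and the recomputed −log10 p differed by 0.00034 or less. The lowest background gave the relative depth, and the absolute depth is unknown. The steps were tested on simulated data, where 100% of 5000 site patterns and 100% of 20000 pileups came back. Simulated sites were at least 20 bases apart and the peaks of each overlapped, so the patterns had to come back. The joining of separate peaks was not simulated, and simulated pileups stood further above background than those of some listed peaks. For depth matching, pileups were thinned to the lowest background of the 4 lists, with a −log10 p of at least 5. Gene spans and promoters came from RefSeq on GRCm38.p6, which matched 5 and 4 of the 5 genes. Exons and introns were not annotated. Starts of transcription were read from the promoter windows. At Meis1, Meis2 and Meis3 they lay inside the gene spans rather than at the ends. The work ran in Python 3.11.15 with pandas 2.3.3, scipy 1.17.1, matplotlib 3.10.9 and numpy 2.4.6.

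Named sites were those differing between the forelimb parts, the 2 strongest shared ones per gene, those within 1 kb of a span end the top one-tissue site per tissue, and any in both forelimb parts alone (there was none), and other sites were named after their values were seen. Members and lists were chosen with earlier results of these data known. No test was possible with 1 library per tissue.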

Additional observations from a re-analysis of the deposited data

How the results depend on the processing

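Sites called in all 4 tissues numbered 31 to 32 under every treatment of the lists, while all sites in the windows numbered 61 to 97, against 102, when lists were cut or thinned, so that the shared portion went up to 52.5% in lists of equal length. The count was 21 with windows of 50 kb and 5 in the gene spans alone, where fewer bases were searched. Distal sites that proximal forelimb lacked numbered 7 to 10 under each setting run. Proximal sites that distal forelimb lacked numbered 2 after thinning and 2 in the spans, against 6, and 4 to 7 in the other settings. Trunk-only sites were the most dependent on the setting, at 5 in lists of equal length, 27 after thinning and 17 in the spans, against 43, and at 32 to 45 in the other settings. The thinning was a single random draw, and it left distal forelimb pileups unchanged because that list had the lowest background. The common −log10 p of at least 5 without thinning was added after seeing the data and kept the 4 counts within 1.5 times. Ranking by fold in place of p shifted 81 percentiles of named sites by a median of 2.66 points and at most 22.5. In lists of equal length 67 of them were still listed, and the rest had dropped out. Their shift had a median of 1.23 and was at most 39.7, at the Pbx3 site chr2:34113967-34114346 in posterior trunk. That site stood at 40.8 in the whole list and 1.08 in the shorter one. The proximal forelimb list was not cut, so its percentiles could not shift, which lowers the median. The planned motif search around summits was not run for want of a genome of this build. No paired analysis was possible because there was a single library of every tissue.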
